A study of Mus musculus with 8 samples.

Results

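The genes of lung surfactant and of the alveolar type 2 (AT2) cell that makes it were examined in mouse lung. The mice were wild type (WT) or DDAH1-transgenic (TG), and they received either PBS or house dust mite (HDM). The 10 genes were Sftpa1, Sftpb, Sftpc, Sftpd, Abca3, Lamp3, Napsa, Slc34a2, Lpcat1 and Etv5. They were chosen by symbol, through the Entrez identifiers of the count table, and not by their counts. They are 10 of the 23469 genes of the table, and all 10 passed the filter on low counts in every comparison.

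All mice were C57BL/6, and the transgene is the only allele that the labels name. HDM, an extract of the mite Dermatophagoides pteronyssinus, was instilled into the trachea at 100 µg per dose in 50 µl of PBS, and control mice received the same volume of PBS. Doses were given 3 times a week over 3 weeks, and lungs were collected 24 hours after the final dose. The study's methods also list a methacholine test and bronchoalveolar lavage before the tissue was taken, and do not say whether the lungs used for RNA had been lavaged. The promoter of the transgene and the age and sex of the mice are not given in the sources used here. In each of the 4 groups (WT PBS, WT HDM, TG PBS and TG HDM) the RNA of 4 mice made 1 pool, from which 2 libraries were sequenced. Every SD and standard error below is the spread between 2 libraries of 1 pool, so that the p-values measure technical spread only and cover no variation between mice.

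The targeted gene, Ddah1, was at 47.7 and 34.3 CPM (counts scaled to library size over the 8 libraries) in the WT PBS libraries and at 76.9 and 53.8 CPM in the TG PBS libraries. After HDM it was at 43.1 and 44.7 CPM in WT and at 34.9 and 33.4 CPM in the libraries labelled TG HDM. The TG libraries thus lay above the WT libraries after PBS (edgeR adjusted p = 0.358) and below them after HDM (edgeR adjusted p = 0.637), and neither difference passed the test. Ddah1 therefore goes against the label of the TG HDM libraries, which are called here by their label only. The sequence of the transgene is not stated, and its reads count under Ddah1 only where they aligned to the mouse gene.

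Xist, the RNA of the inactive X chromosome, was at 11.3 to 20.8 CPM in the 4 PBS libraries and at 2048 to 3040 CPM in the 4 HDM libraries, and Ddx3y, on the Y chromosome, was at 58.7 to 69.0 and at 0.179 to 0.301 CPM. In every comparison of HDM with PBS, treatment and the sex of the mice cannot be told apart, and the 2 genotypes are matched for these genes within each treatment. A change of the genotype difference from PBS to HDM has the same limit. Total counts lay between 5694928, in TG HDM replicate 1, and 11929374. The 45S ribosomal RNA gene Rn45s took 8.58% and 9.37% of the counts in the TG HDM libraries and 14.8% to 21.8% in the other 6.

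Surfactant is a film of phospholipid and protein that keeps the alveoli from collapsing at the end of a breath. AT2 cells make it, store it in lamellar bodies and secrete it, and they also renew the alveolar epithelium. SP-B and SP-C, the products of Sftpb and Sftpc, are small hydrophobic proteins that spread the lipid film. SP-A and SP-D, the products of Sftpa1 and Sftpd, are collectins that bind microbes and allergens, and club cells of the airway also make SP-A, SP-B and SP-D.

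The regulatory sequence that precedes the start site is shown for 3 members. Sftpa1 was taken because its genotype difference after PBS passed the test. Sftpb and Slc34a2 were taken because their genotype difference changed between PBS and HDM libraries. The promoter sequences come from RefSeq (GRCm38.p6, the build also named mm10), which matched 7 of the 10 members and not Sftpc, Sftpd and Napsa. Each line gives the 250 bases before the start site, 5′ to 3′ on the strand of the gene, for Sftpa1 at chr14:41131538-41131787, for Sftpb at chr6:72304360-72304609 and for Slc34a2 at chr5:53049103-53049352, all on the plus strand. Capitals mark matches to CTCAAG (the core bound by NKX2-1, the master regulator of lung epithelium), TATAAA (the TATA box), TGTTTAC or TGTTTGC (the forkhead motif) and TTGCGCAA (the palindrome bound by C/EBP factors), all searched on both strands and chosen after the sequences had been seen.
Sftpa1: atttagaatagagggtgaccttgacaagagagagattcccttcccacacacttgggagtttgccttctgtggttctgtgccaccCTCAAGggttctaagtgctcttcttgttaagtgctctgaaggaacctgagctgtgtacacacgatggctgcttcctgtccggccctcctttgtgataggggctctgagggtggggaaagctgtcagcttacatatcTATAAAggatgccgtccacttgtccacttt
Sftpb: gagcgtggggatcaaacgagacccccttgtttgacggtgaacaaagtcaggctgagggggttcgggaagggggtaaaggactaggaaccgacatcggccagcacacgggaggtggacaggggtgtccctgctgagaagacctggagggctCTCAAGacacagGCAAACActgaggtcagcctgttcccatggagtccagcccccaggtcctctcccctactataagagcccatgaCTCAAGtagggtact
Slc34a2: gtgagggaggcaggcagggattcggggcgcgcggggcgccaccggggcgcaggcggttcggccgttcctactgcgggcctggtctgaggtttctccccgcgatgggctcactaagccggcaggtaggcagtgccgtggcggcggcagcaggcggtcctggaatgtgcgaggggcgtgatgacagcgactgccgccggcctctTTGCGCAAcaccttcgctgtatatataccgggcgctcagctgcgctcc

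The CTCAAG motif occurred in 15.9% of all 32851 promoters of 300 bases (250 before and 50 after the start site). It began 166 bases before the start site in Sftpa1, and 100 and 15 bases before it in Sftpb. TATAAA occurred in 13.6% of promoters, among them that of Sftpa1, 30 bases before the start. The forkhead motif occurred in 8.48% of promoters and lay on the opposite strand of Sftpb, 88 bases before the start and between the 2 matches to CTCAAG. It also occurred in the promoters of Lamp3 and Etv5, 92 and 183 bases before the start. TTGCGCAA was rare, with 60 promoters or 0.183% of all, and lay in Slc34a2, 48 bases before the start. None of these 4 motifs was found in the windows of Lpcat1 and Abca3. These are matches of letters and not measured binding.

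Some of the members were among the most abundant transcripts of the lung. The 10 members together took 1.54% to 2.32% of the counts of a library, and Sftpc alone took 0.584% to 1.3%. Sftpc ranked between 5 and 7 among all genes by counts in the 8 libraries. Slc34a2 ranked between 12 and 19, Sftpa1 between 11 and 24 and Sftpb between 20 and 54. Lamp3 ranked between 96 and 132 and Abca3 between 187 and 421, while Sftpd (148 to 971), Napsa (452 to 1469), Lpcat1 (602 to 1522) and Etv5 (1143 to 1945) stood far lower in at least 1 group. All 12 other AT2 markers examined had counts in each of the 4 groups. In whole lung, fewer AT2 cells and less RNA per AT2 cell cannot be told apart.

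The order of the levels was set per length, since long genes collect more reads. The study's methods state that reads in coding regions were counted, and CPM were divided by kilobases of coding sequence (GENCODE M21). RNAs without coding sequence, such as Xist and Rn45s, also have counts, so that reads outside coding sequence were counted for at least some genes. Levels per kilobase of the whole transcript are therefore given as well. Sftpc stood first at 9819 to 26149 CPM per coding kilobase over the 8 libraries, followed without overlap by Sftpa1 at 2451 to 4341. Sftpb at 954 to 2375 and Slc34a2, the sodium and phosphate cotransporter of the AT2 cell, at 1048 to 1612 CPM per coding kilobase came next, and their ranges overlapped. Lamp3, a membrane protein of lamellar bodies that dendritic cells also express, lay at 404 to 539 and overlapped with Sftpd at 127 to 481 CPM per coding kilobase. The remaining members stood at the low end, where each range overlapped with that of its neighbour in the order. Napsa, the protease napsin A that processes SP-B and SP-C, was at 84.6 to 187 CPM per coding kilobase, and Lpcat1, the enzyme that makes the main surfactant phospholipid, at 63.8 to 128. Abca3, which pumps phospholipid into lamellar bodies, was at 48.5 to 87.1 and Etv5, a transcription factor downstream of FGF signals, at 54.5 to 84.1 CPM per coding kilobase. Per kilobase of the whole transcript, Sftpc stayed first at 7178 to 19116 CPM per kilobase, but Sftpa1 (639 to 1132) then overlapped with Sftpb (680 to 1693) and Slc34a2 (525 to 807). The separation of Sftpa1 from Sftpb and Slc34a2 thus depended on the length used.

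**Figure D1:**
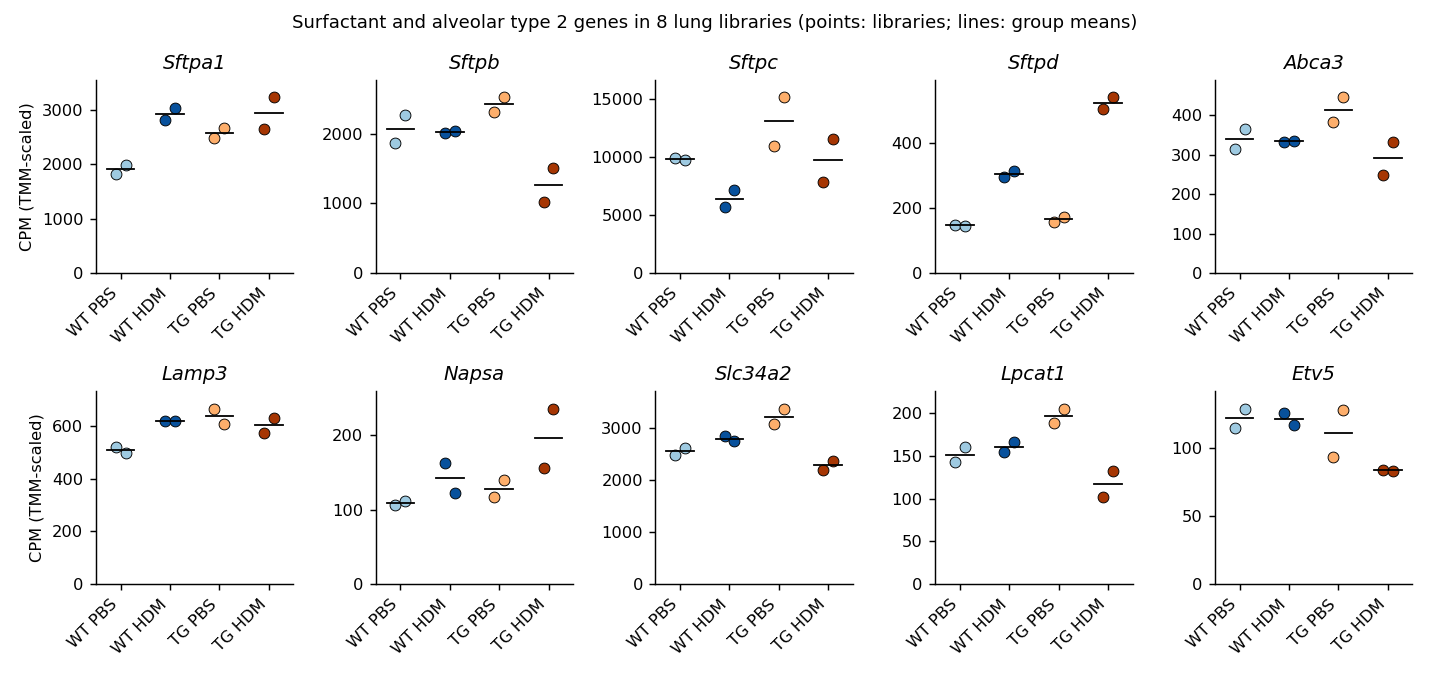
Level of each of the 10 members in CPM (vertical axes, scaled by TMM over the 8 libraries, each from 0) in the 4 groups, with 1 point per library and a line at the mean of the 2 libraries of a group. Sftpd stands at 295 to 540 CPM in the 4 HDM libraries and at 143 to 172 CPM in the 4 PBS libraries, and Sftpb is lowest in the 2 libraries labelled TG HDM.

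In WT mice, the comparison of HDM with PBS asked how the members stood in the allergen-treated lung. The collectin genes Sftpd and Sftpa1 were higher after HDM and Sftpc was lower, and these 3 of the 10 members passed the test. Of the 15123 genes tested, 6.74% passed, 4.44% higher and 2.3% lower. Sftpd had 149 and 143 CPM in the PBS libraries and 295 and 312 CPM in the HDM libraries, a rise of 2.08-fold (log2 fold change 1.06 ± 0.14 SE, edgeR adjusted p = 0.000269). Sftpa1 rose from 1824 and 1992 CPM to 2810 and 3036 CPM (log2 fold change 0.61 ± 0.09 SE, edgeR adjusted p = 0.000504). Sftpc moved the other way, from 9950 and 9771 CPM to 5685 and 7139 CPM, so that it fell 1.54-fold (log2 fold change -0.62 ± 0.09 SE, edgeR adjusted p = 0.00048). In each of these 3 genes the PBS and HDM libraries did not overlap.

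The other hydrophobic protein gene, Sftpb, did not share the fall of Sftpc. It had 1872 and 2267 CPM after PBS and 2004 and 2043 CPM after HDM, and its HDM libraries lay within the range of the PBS libraries (log2 fold change -0.03 ± 0.10 SE, edgeR adjusted p = 0.9). Lamp3 had 519 and 499 CPM after PBS and 619 and 620 CPM after HDM, and Napsa had 106 and 112 CPM after PBS and 163 and 123 CPM after HDM. The groups of Lamp3 and Napsa did not overlap, but their log2 fold changes of 0.28 and 0.39 did not pass the test (edgeR adjusted p = 0.172 and 0.24). Abca3, Lpcat1 and Etv5 had log2 fold changes between -0.02 and 0.08, and Slc34a2 one of 0.13. In all, 6 members had no overlap between the WT groups, 5 of them higher and 1 lower after HDM, against 49.8% of all genes, 25% higher and 24.7% lower. The median log2 fold change was 0.10 over the members and 0.02 over all genes, and that of the members was 0.04 without WT PBS replicate 1 and 0.15 without WT PBS replicate 2.

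Between the libraries labelled TG HDM and those of TG PBS, 4 members passed the test, 1 higher and 3 lower. Of the 15086 genes tested, 13.8% passed, 8.43% higher and 5.35% lower. Sftpd was at 158 and 172 CPM after PBS and at 505 and 540 CPM after HDM, a rise of 3.22-fold and the largest difference of a member in any comparison (log2 fold change 1.69 ± 0.18 SE, edgeR adjusted p = 0.000116). Sftpb fell, from 2317 and 2522 CPM to 1014 and 1503 CPM, or 1.9-fold (log2 fold change -0.92 ± 0.18 SE, edgeR adjusted p = 0.00557). Lpcat1 fell from 188 and 205 CPM to 102 and 132 CPM (log2 fold change -0.72 ± 0.21 SE, edgeR adjusted p = 0.0392). Slc34a2 fell from 3068 and 3370 CPM to 2191 and 2375 CPM (log2 fold change -0.47 ± 0.14 SE, edgeR adjusted p = 0.0412). The groups did not overlap in any of these 4 genes. The 3 that fell encode a film protein, which club cells also make, a lipid enzyme and a phosphate carrier.

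Abca3 and Etv5 also lay lower after HDM without overlap, at 248 and 333 against 383 and 445 CPM for Abca3 and at 84.3 and 83.3 against 93.7 and 128 CPM for Etv5, and neither passed the test (edgeR adjusted p = 0.121 and 0.341). Napsa lay higher, at 156 and 236 against 117 and 140 CPM (edgeR adjusted p = 0.096). Sftpc was at 10974 and 15140 CPM after PBS and at 7878 and 11573 CPM after HDM, and the groups overlapped (log2 fold change -0.41 ± 0.18 SE, edgeR adjusted p = 0.165). Sftpa1 had a log2 fold change of 0.21 and Lamp3 one of -0.06, both with overlap. In all, 7 of the 10 members had no overlap, 2 higher and 5 lower, against 56.8% of all genes, 28.8% higher and 28% lower. The median log2 fold change was -0.39 over the members and 0.03 over all genes, and that of the members was -0.15 without TG PBS replicate 2 and -0.24 without TG HDM replicate 1. The calls of Sftpb, Lpcat1 and Slc34a2 were lost without either TG PBS library (edgeR adjusted p from 0.0858 to 0.353), and that of Lpcat1 also without TG HDM replicate 1 (edgeR adjusted p = 0.0812). With an offset for transcript length, Slc34a2 had an edgeR adjusted p of 0.0526.

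**Figure D2:**
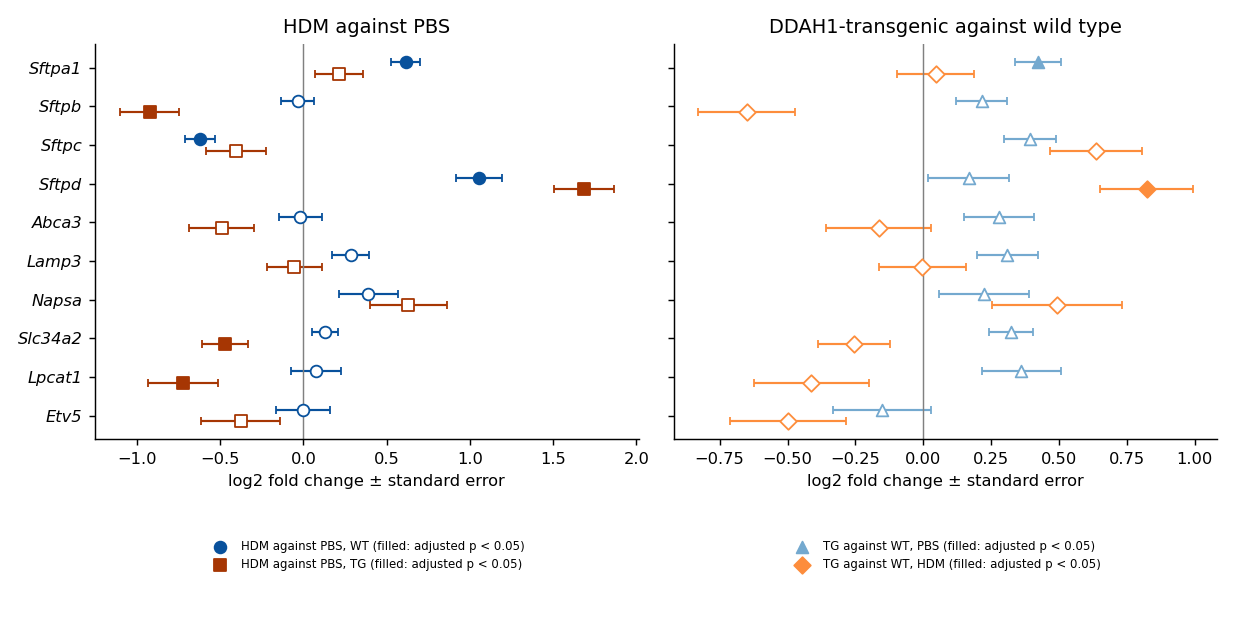
Log2 fold change of each member (horizontal axis) with its standard error from 2 libraries a group, for HDM against PBS in WT and TG mice (left) and for TG against WT after PBS and after HDM (right), with filled symbols where the edgeR adjusted p is under 0.05. Sftpd lies to the right of 0 in all 4 comparisons, and Sftpb lies near 0 in WT (-0.03) and to the left of it in the TG mice (-0.92) for HDM against PBS.

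After PBS, TG mice were compared with WT mice to see whether the transgene went with a difference without allergen. Sftpa1 was the only member past the test, with 1824 and 1992 CPM in WT and 2481 and 2671 CPM in TG mice, a rise of 1.34-fold (log2 fold change 0.42 ± 0.08 SE, edgeR adjusted p = 0.0223). Of the 14926 genes tested, 0.657% passed, and 0.281% passed as higher in TG mice. The call was lost without WT PBS replicate 1 (log2 fold change 0.37, edgeR adjusted p = 0.369), without WT PBS replicate 2 (0.48, edgeR adjusted p = 0.0659) and with all 8 libraries in 1 fit (0.43, edgeR adjusted p = 0.155). Sftpc and Slc34a2 also lay higher in TG mice and did not pass. Sftpc had 9950 and 9771 CPM in WT and 10974 and 15140 CPM in TG mice (log2 fold change 0.39 ± 0.10 SE, edgeR adjusted p = 0.073), and Slc34a2 had 2485 and 2623 against 3068 and 3370 CPM (log2 fold change 0.32 ± 0.08 SE, edgeR adjusted p = 0.0829).

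Of the 10 members, 9 lay higher in TG PBS libraries than in WT PBS libraries with no overlap, against 20% of all genes that were higher without overlap. Etv5, at 115 and 129 CPM in WT and 93.7 and 128 CPM in TG mice, was the exception. The members are measured in the same 4 libraries and are not independent of each other. Their median log2 fold change was 0.29, against 0.00 over all genes, and it was 0.17 without TG PBS replicate 2. The alveolar type 1 (AT1) marker list lay higher in TG mice as well, with all 8 genes above 0 and a median log2 fold change of 0.31, as did all 7 markers of lung endothelium with a median of 0.21. The summed level of AT1 markers was 2984 and 3067 CPM in WT PBS and 3971 and 3830 CPM in TG PBS libraries. The leukocyte markers had a median log2 fold change of -0.77 and the thymocyte markers one of -4.35, and the skeletal muscle markers one of 5.38. Thymocyte markers summed to 77.7 and 80.2 CPM in WT PBS libraries and to 17.6 to 28.1 CPM in the other 6, and skeletal muscle markers to 42.2 and 45.6 CPM in WT PBS libraries and to 164 to 288 CPM in the other 6. The part of these cell mixtures in the differences of the members was not tested.

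After HDM, TG mice were compared with WT mice to see whether genotypes differed in the allergen-treated lung, and Sftpd was the only member past the test. It had 295 and 312 CPM in WT HDM libraries and 505 and 540 CPM in the libraries labelled TG HDM, a rise of 1.77-fold (log2 fold change 0.82 ± 0.17 SE, edgeR adjusted p = 0.0281). Of the 15191 genes tested, 2.44% passed, and 1.84% passed as higher in TG mice. Sftpb and Sftpc lay on opposite sides. Sftpb had 2004 and 2043 CPM in WT HDM libraries and 1014 and 1503 CPM in those labelled TG HDM (log2 fold change -0.65 ± 0.18 SE, edgeR adjusted p = 0.089), and Sftpc had 5685 and 7139 against 7878 and 11573 CPM (log2 fold change 0.64 ± 0.17 SE, edgeR adjusted p = 0.0826). Both passed with DESeq2 (DESeq2 adjusted p = 0.0194 for Sftpb and 0.0461 for Sftpc) and with all 8 libraries in 1 fit (edgeR adjusted p = 0.012 and 0.0283). Sftpc has a transcript of 792 bases, and its value was not above the median of 0.70 for genes of up to 1000 bases. The part of length in this difference was not tested.

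Slc34a2, Lpcat1 and Etv5 lay lower in the libraries labelled TG HDM without overlap, with log2 fold changes of -0.25, -0.41 and -0.50 that did not pass the test (edgeR adjusted p = 0.378, 0.364 and 0.277). Napsa (0.49), Abca3 (-0.16), Sftpa1 (0.05) and Lamp3 (-0.003) overlapped between the groups. In all, 2 members lay higher and 4 lower without overlap, against 48.2% of all genes, 23.2% higher and 25% lower, and the median log2 fold change was -0.08 over the members and 0.01 over all genes. That of the members was 0.03 without TG HDM replicate 1, -0.20 without TG HDM replicate 2 and 0.02 with an offset for transcript length, so that its sign was not stable. The call of Sftpd was lost without either WT HDM library (edgeR adjusted p = 0.418 and 0.313) and with an offset for transcript length (log2 fold change 0.43, edgeR adjusted p = 0.253) or coding length (edgeR adjusted p = 0.0625).

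The 2 genotype differences were then compared with each other, in a fit of all 8 libraries. A negative value means that TG stood lower against WT after HDM than after PBS. Here too, treatment and the sex of the mice cannot be told apart. Sftpb had a difference of -0.91 ± 0.21 SE on the log2 scale (edgeR adjusted p = 0.0327) and Slc34a2 one of -0.63 ± 0.15 SE (edgeR adjusted p = 0.0361), and 1.76% of the 15868 genes tested passed, 0.706% with a negative value. Both stood higher in TG than in WT libraries after PBS and lower after HDM, in every library. Lpcat1 had the same pattern, with a difference of -0.82 ± 0.26 SE (edgeR adjusted p = 0.128). For Sftpd the difference of 0.61 ± 0.21 SE did not pass (edgeR adjusted p = 0.184), so that its larger HDM response in the TG group was not shown to differ from that in WT. For Sftpc it was 0.20 ± 0.22 SE (edgeR adjusted p = 0.74), and for Sftpa1 -0.42 ± 0.16 SE (edgeR adjusted p = 0.225). Abca3, Lamp3, Napsa and Etv5 had differences between -0.49 and 0.22 with edgeR adjusted p-values from 0.352 to 0.798. Each of the 2 calls was lost without WT PBS replicate 1 and without either library of WT HDM or TG PBS (edgeR adjusted p from 0.0508 to 0.215), and that of Slc34a2 also without WT PBS replicate 2 (edgeR adjusted p = 0.132).

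Ratios of members within a library do not depend on its total. Per 100 Sftpc counts, Sftpd had 1.49 and 1.46 counts in WT PBS, 1.44 and 1.13 in TG PBS, 5.19 and 4.37 in WT HDM, and 6.41 and 4.67 in the libraries labelled TG HDM. This ratio restates the levels given above, with Sftpd higher after HDM in both genotypes and Sftpc lower in WT. It separated HDM from PBS libraries in both genotypes, and the 2 HDM groups overlapped. Per 100 Sftpa1 counts, Sftpb had 103 and 114 counts in WT PBS and 93.4 and 94.4 in TG PBS, 71.3 and 67.3 in WT HDM, and 38.2 and 46.5 in the libraries labelled TG HDM. This second ratio took 4 levels that did not overlap. The ratios have no offset for length, and the transcripts of Sftpb and Sftpa1 have 1490 and 2854 bases. The part of length in the ratios was not tested. Per 100 Sftpc counts, Sftpa1 had 18.3 and 20.4 counts in WT PBS, 22.6 and 17.6 in TG PBS, 49.4 and 42.5 in WT HDM, and 33.7 and 27.9 in the libraries labelled TG HDM. Lamp3 per 100 Slc34a2 counts varied less, between 18 and 22.6 in 6 libraries and at 26.2 and 26.5 in those labelled TG HDM.

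**Figure D3:**
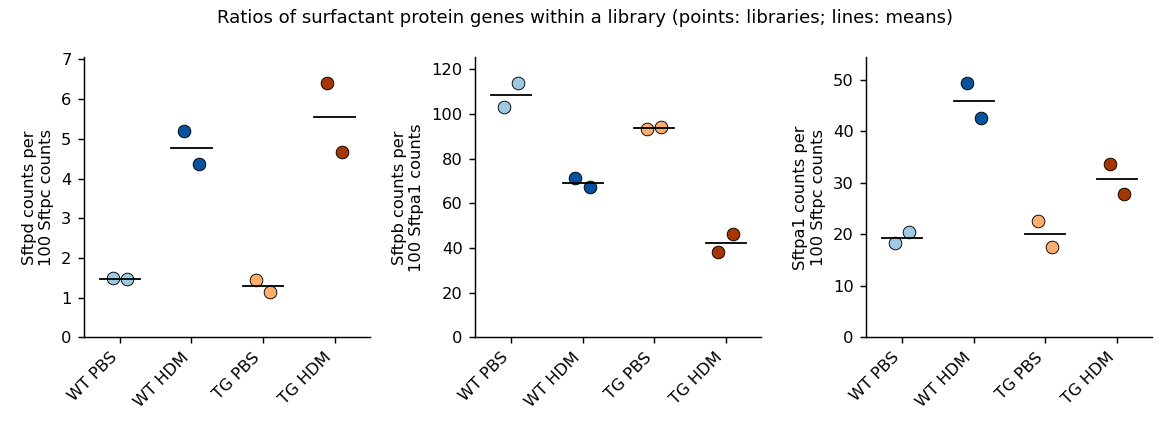
Counts of Sftpd per 100 counts of Sftpc (left), of Sftpb per 100 counts of Sftpa1 (middle) and of Sftpa1 per 100 counts of Sftpc (right) in the 4 groups, on axes from 0, with 1 point per library and a line at the mean of 2. The Sftpd ratio is 1.13 to 1.49 in the 4 PBS libraries and 4.37 to 6.41 in the 4 HDM libraries.

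Across the 8 libraries the members did not vary as 1 group. On the log2 CPM scale, Lpcat1 followed Sftpb with a Pearson r of 0.961, and its r was 0.95 with Slc34a2 and 0.947 with Abca3. Sftpd went with Napsa (r = 0.821) and Sftpa1 (r = 0.755), Sftpa1 went with Lamp3 (r = 0.798), and Sftpd was opposite to Sftpb (r = -0.785). Sftpc had an r with each other member between -0.348 and 0.582. The 8 libraries come from 4 pools and share their group differences, so these values only describe them. Over the 10 members, the gene outside them whose level was most like their mean was Rsph3a (r = 0.971 over 8 libraries, among 9668 genes), followed by Capn7 (0.964), Rsph3b (0.94), Arfgef3 (0.935) and Zfp746 (0.92). Rsph3a and Rsph3b are near-identical copies, whose reads cannot be assigned with certainty. None of the 5 belongs to the marker lists of AT2 cells used here.

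Transcript length moved with the fold changes wherever the libraries labelled TG HDM entered. Across genes, Spearman's correlation of log2 fold change with transcript length was -0.331 for TG HDM against TG PBS and -0.281 for TG against WT after HDM. It was -0.126 for HDM against PBS in WT, and 0.0129 for TG against WT after PBS. For the difference between genotype effects it was -0.241. Genes of up to 1000 bases had a median log2 fold change of 1.00 for TG HDM against TG PBS, those over 1000 to 2000 bases one of 0.46, and those over 4000 bases one of -0.26. For TG against WT after HDM the medians were 0.70, 0.30 and -0.18 in the same bands. For the difference between genotype effects the medians were 0.69 at up to 1000 bases and -0.22 over 4000 bases. Sftpc, with 792 bases, and Sftpd, with 1275 bases, are among the shorter members, and Abca3, with 6476 bases, is the longest.

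With an offset for transcript length, Sftpc was lower in TG HDM than in TG PBS libraries by a log2 fold change of -1.46 (edgeR adjusted p = 0.000257), where it had been -0.41 without the offset, and with coding length in place of transcript length it was -0.95 (edgeR adjusted p = 0.00517). For TG against WT after HDM, Sftpb had -0.98 with the offset (edgeR adjusted p = 0.00953). The rise of Sftpd after HDM in both genotypes and the fall of Sftpc after HDM in WT passed with either offset. Sftpa1 is measured with 2854 bases of transcript, of which 744 are coding, and its sign for TG HDM against TG PBS depended on the choice, with 0.21 without an offset and -0.21 with coding length. The part of length in the differences of the members with the libraries labelled TG HDM is given by these values and was not tested further. Genes of the marker lists are given without an offset for length throughout, and the part of length in their differences was not tested.

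**Figure D4:**
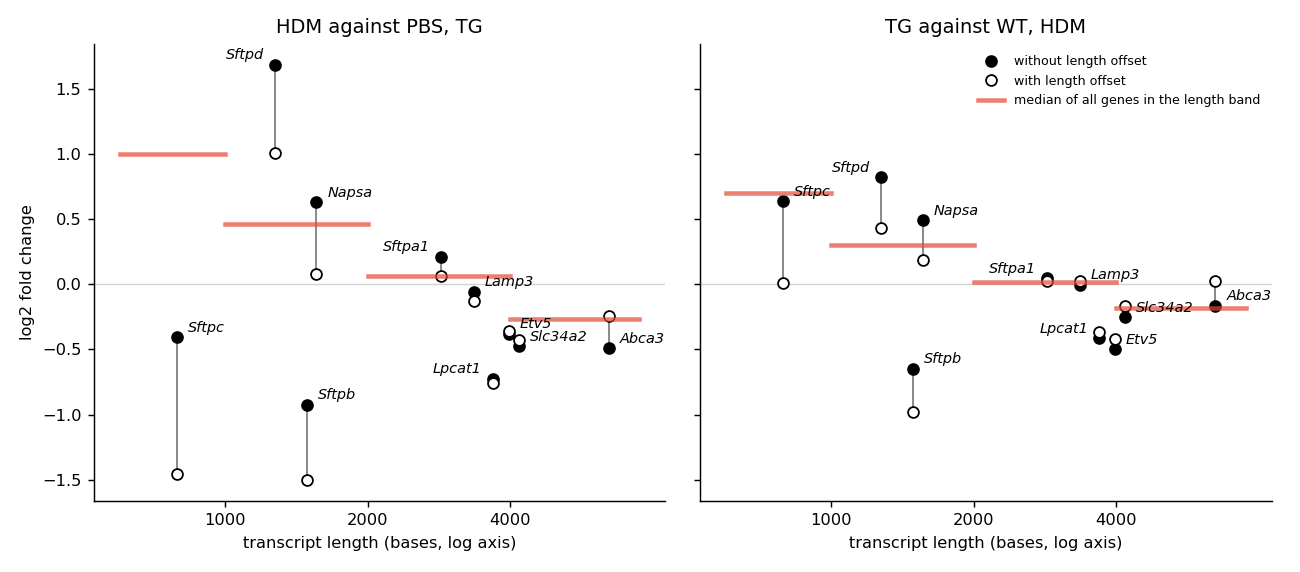
Log2 fold change of the 10 members (vertical axis) against transcript length in bases (horizontal, log axis) for TG HDM against TG PBS (left) and TG against WT after HDM (right), without (filled) and with (open) an offset for transcript length. Red lines give the median of all genes in a length band, which falls from 1.00 at up to 1000 bases to -0.26 over 4000 bases on the left, and the offset moves Sftpc on the left from -0.41 to -1.46.

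Genes that make the lipid of surfactant, and other lists, were set beside the members. Past the test were 6.74% of all genes for HDM against PBS in WT mice and 13.8% in the TG groups. For TG against WT these shares were 0.657% after PBS and 2.44% after HDM. Of 16 lipid synthesis genes, 10 lay higher after HDM in WT mice. In all, 3 passed the test as higher, among them Acsl4 and Fabp5, against 4.44% of all genes. The median log2 fold change was 0.16. Acsl4, which activates polyunsaturated fatty acids, rose from 239 ± 11.5 to 539 ± 10.3 CPM (SD, n = 2; edgeR adjusted p = 3.12e-05), and Fabp5, a fatty acid carrier, from 43.3 ± 1.75 to 113 ± 11.1 CPM. In the TG groups Fabp5 rose from 39.1 ± 0.633 to 242 ± 22.5 CPM, 6.28-fold (edgeR adjusted p = 1.8e-05), while the desaturase Scd2 and the phosphatidylcholine enzyme Chpt1 fell 1.83-fold and 1.91-fold, and the median was -0.20. After HDM, 1 gene of the list passed between genotypes with edgeR, Fabp5, which was 2.2-fold higher in the libraries labelled TG HDM, and 3 passed with DESeq2. After PBS, 0 of 16 passed with edgeR and 0 with DESeq2, and 4 had an unadjusted edgeR p under 0.05. Fabp5 and Acsl4 passed the test of the difference between genotype effects, in opposite directions (1.24 and -1.03), against 1.76% of all genes. These values have no offset for length, and over all genes this difference fell with transcript length (Spearman's correlation -0.241).

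Of 14 genes for processing, secretion and lamellar body traffic, Adgrf5 passed the test in both genotypes after HDM. It encodes a receptor of AT2 and endothelial cells that limits the surfactant pool, and it fell from 1909 ± 82.4 to 1176 ± 29.6 CPM in WT and from 2341 ± 242 to 874 ± 36 CPM in the TG groups (SD, n = 2; edgeR adjusted p = 0.000252 and 0.000131). It was the only gene of the list past the test in WT, against 6.74% of all genes. In the TG groups, Ctsh, the cathepsin that processes SP-B and SP-C, rose 2.33-fold, and Nedd4, a ubiquitin ligase, and Vamp2, a vesicle fusion protein, fell 1.88-fold and 2.34-fold. In RNA of whole lung, Sftpb and Ctsh thus moved in opposite directions there, and whether they did so within AT2 cells was not tested. Between genotypes, 0 of the 14 passed with edgeR after PBS, with 4 at an unadjusted p under 0.05, and 0 after HDM, with 6. DESeq2 called 0 of them after PBS and 2 after HDM. The medians were -0.09 and -0.11 for HDM against PBS in WT and TG mice, and 0.12 and 0.02 for TG against WT after PBS and HDM.

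The regulators of AT2 identity and FGF signalling were mostly below the threshold. Of 14 genes, 13 were tested, since Etv4, a relative of Etv5, had 0 to 2 counts in every library. Fgf7, a growth factor for AT2 cells, fell after HDM in WT mice from 49.2 ± 15.2 to 16.1 ± 4.94 CPM (edgeR adjusted p = 0.00844), and Nfib, a transcription factor, fell in the TG groups from 324 ± 17.2 to 164 ± 19.7 CPM (edgeR adjusted p = 0.00747). Nkx2-1 was at 154 and 204 CPM in WT PBS, 185 and 198 CPM in WT HDM, 193 and 250 CPM in TG PBS, and 158 and 136 CPM in the libraries labelled TG HDM. The median of the list was -0.19 in WT and -0.58 in the TG groups for HDM against PBS, where 12 of 13 lay lower. For TG against WT, 0 of 13 passed with edgeR after PBS (median 0.15, 1 at an unadjusted p under 0.05) and 0 after HDM (median -0.20, 0 at an unadjusted p under 0.05), and DESeq2 called 0 in both.

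Other markers of AT2 cells went in both directions. Of 12, 6 passed in WT mice after HDM, 4 higher and 2 lower, against 6.74% of all genes, 4.44% higher and 2.3% lower. The 4 with the smallest p were Chil1, a chitinase-like protein that macrophages also make (300 ± 0.9 to 1178 ± 32.4 CPM), the alarmin Il33 (130 ± 21.1 to 560 ± 49.1 CPM), the chemokine Cxcl15 (1458 ± 55.3 to 2301 ± 99.7 CPM) and lysozyme Lyz2 (11715 ± 787 to 8707 ± 110 CPM). Il33 was lower in the libraries labelled TG HDM than in WT HDM (log2 fold change -1.09, edgeR adjusted p = 0.00759), and S100g, a calcium-binding protein, was 2.85-fold higher. In the TG groups 6 of 11 tested passed, against 13.8% of all genes. Chil1, S100g and Il33 were higher and Cd36, a fatty acid receptor, was lower, and the rest of the 6 were lower too. The medians were 0.48 and -0.08 for HDM against PBS in WT and TG mice and 0.16 and -0.35 for TG against WT after PBS and HDM, with 0 of 12 past the edgeR test after PBS (4 at an unadjusted p under 0.05, and 2 past DESeq2).

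Surfactant is cleared by AT2 cells and by alveolar macrophages, which need the receptor of GM-CSF. Of 10 genes for uptake and catabolism, the receptor chains Csf2ra and Csf2rb2 passed the test as higher in WT mice after HDM, against 4.44% of all genes. They rose from 19.3 ± 0.11 to 53.9 ± 0.902 CPM and from 60.5 ± 19.8 to 116 ± 9.47 CPM. In the TG groups Csf2rb and Csf2rb2 rose 2.41-fold and 2.5-fold, and Plin2, a coat protein of lipid droplets, rose 1.79-fold. Csf2rb and Csf2rb2 are near copies of each other, and reads could be split between them. Csf2ra was at 21.0 ± 1.82 CPM in the libraries labelled TG HDM, 2.5-fold lower than in WT HDM (edgeR adjusted p = 0.0446), and Csf2, the ligand, was at 1.8 to 3.38 CPM throughout. The medians were 0.51 and 0.33 for HDM against PBS in WT and TG mice, and 0.17 and 0.04 for TG against WT after PBS (0 of 10 past the edgeR test, 3 at an unadjusted p under 0.05, and 1 past DESeq2) and HDM.

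Markers of the neighbouring epithelium were set beside the members. Of 8 AT1 markers, Akap5, Clic5, Cav1 and Rtkn2 passed the test as lower after HDM in WT mice and in the TG groups. Of all genes, 2.3% and 5.35% did so. The summed level was 2984 and 3067 CPM in WT PBS, 1839 and 1941 CPM in WT HDM, 3971 and 3830 CPM in TG PBS, and 2300 and 2242 CPM in the libraries labelled TG HDM. All 7 club cell markers lay lower in WT after HDM, and 5 passed the test, against 2.3% of all genes that passed as lower. Their sum was 31318 and 38797 CPM in WT PBS and 11581 and 13508 CPM in WT HDM. Most of it was Scgb1a1, with a mean of 30629 CPM in WT PBS. In the TG groups the club cell sum was 37756 and 56604 CPM after PBS and 11130 and 15169 CPM after HDM. There 4 markers passed as lower and 2, Scgb3a1 and Scgb3a2, as higher, while Cldn10 did not pass (log2 fold change 0.43). Club cells also make the products of Sftpd, Sftpa1 and Sftpb. For HDM against PBS, these 3 genes had log2 fold changes of 1.06, 0.61 and -0.03 in WT mice. In the TG groups the values were 1.685, 0.21 and -0.92. For TG against WT after HDM, 6 of the 7 club cell markers lay higher, with a median log2 fold change of 0.68 against 0.01 over all genes. Among them, Scgb3a2 and Scgb3a1 passed the test, against 1.84% of all genes that passed as higher. Scgb1a1 had a log2 fold change of -0.02. In that comparison Sftpd, Sftpa1 and Sftpb had 0.82, 0.05 and -0.65. The part of club cells in all these differences was not tested. Ciliated cell markers had 1 of 7 past the test in each comparison of HDM with PBS, Tppp3, which was lower, and summed to 430 to 546 CPM after PBS and 250 to 336 CPM after HDM.

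Among other cells, alveolar macrophage markers summed to 289 and 303 CPM in WT PBS and 829 and 735 CPM in WT HDM, and to 371 and 367 and then 674 and 579 CPM in the TG groups. Of these 8 markers, 3 passed after HDM in WT, all higher (Itgax 7.34-fold, Ear2 3.57-fold and Mrc1 3.3-fold), against 4.44% of all genes. Marco and Siglecf went the other way, with log2 fold changes of -2.32 and -0.51 (edgeR adjusted p = 0.076 and 0.605). Leukocyte markers summed to 486 to 516 CPM in WT PBS, 675 to 739 CPM in WT HDM, 281 to 307 CPM in TG PBS and 753 to 764 CPM in the libraries labelled TG HDM. This list was mixed in WT too, with the B cell gene Cd79a 3.32-fold higher and the neutrophil gene Csf3r 1.76-fold lower after HDM (edgeR adjusted p = 0.00038 and 0.011). Endothelial markers summed to 1881 and 1904, 1486 and 1434, 2273 and 2255, and 940 and 1302 CPM in the same 4 groups. None of the markers of these 3 lists was at 0 in any group. These summed levels differed between HDM and PBS libraries, and their part in the differences of the members was not tested.

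Most members can be told from other genes by their reads. Of all stretches of 50 bases in the transcript, the length of a read, 26.8% in Etv5 also occurred in the transcript of another gene (Gm4798), 14.3% in Abca3 (Abca17 and D330041H03Rik, which overlap it on chromosome 17), 10.9% in Napsa (Gm15396) and 5.11% in Lamp3. Slc34a2 overlaps Gm17182, and strand was not stated for the counting. The share of such stretches was 0.211% in Sftpb and 0% in Sftpa1, Sftpc, Sftpd, Slc34a2 and Lpcat1. Sftpa1 (41131788 to 41136373), Sftpd (41172212 to 41185198) and Sftpc (70520941 to 70524081) lie on chromosome 14 of GRCm38. Sftpb is on chromosome 6 (72304610 to 72314373) and Slc34a2 on chromosome 5 (53049353 to 53071664). Sftpa1 and Sftpd lie in the same cluster of collectin genes and are transcribed from opposite strands. Both rose after HDM in WT mice. In the TG groups Sftpd had a log2 fold change of 1.69, and that of Sftpa1, 0.21, did not pass the test.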

How the data were processed

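RNA of whole lung was amplified before library construction (SPIA), sequenced as single reads of 50 cycles, and demultiplexed with CASAVA 1.8 per the submitters' processing notes. The authors aligned the reads to mm10 (GRCm38) with TopHat. Their methods state that reads in coding regions were summed, gene by gene, with ShortRead and custom R programs, although genes without coding sequence also have counts. They deposited raw read counts for 23469 genes under Entrez identifiers, without normalization. The versions of the aligner and the gene annotation are not given in the sources used here. All columns of per-library values were used.

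Symbols and positions came from the RefSeq annotation of GRCm38.p6 (23372 genes matched), and transcript and coding lengths from GENCODE M21 (21145 genes). The authors' counts were tested with edgeR 4.0.16 in R 4.3.3, by its quasi-likelihood test with TMM normalization and filterByExpr (count minimum of 10). Each comparison was fitted on its own 4 libraries, and the difference between genotype effects on all 8. Benjamini-Hochberg adjustment covered all genes tested in a comparison, with a threshold of 0.05, which is what "passed the test" refers to. Standard errors were taken as the absolute log2 fold change over the square root of F. CPM were scaled by TMM over all 8 libraries. Correlations used log2 CPM with a prior count of 2, and the genes most like the members were sought among those with a mean count of at least 100. Groups did not overlap where both libraries of a group lay above or below both of the other.

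The 10 members and the marker lists (lipid synthesis, processing and secretion, AT2 regulators, other AT2 markers, uptake and catabolism, AT1, club, ciliated, alveolar macrophage, endothelial, leukocyte, skeletal muscle and thymocyte genes) were chosen with earlier results of these data known, and several of their genes are named by the study from the same libraries, so that list counts are not independent support. From a list, at most 4 genes past the test were named per comparison, by the smallest p, and 1 gene that this rule would name is not reported here. Alternatives were median-ratio size factors, DESeq2 1.42.0, the replicate number as a block, no filter on low counts, a loess offset for transcript length (span 0.5), both together, library sizes without Rn45s, Rmrp, Rpph1, Lars2, Mir5109 and haemoglobin genes or without the members, all 8 libraries in 1 fit, and leaving out each library. The offset for coding length was chosen after seeing the data. The scripts were tested on simulated data. Duplicate libraries were compared by chi-square, whose mean per gene was 13.1 to 28.1, so that they differed beyond sampling noise. Same-numbered libraries of different groups did not deviate together, with correlations from -0.0214 to 0.0317.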

Additional observations from a re-analysis of the deposited data

Results flagged for a closer look

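Sftpb and Slc34a2 had genotype differences that changed between PBS and HDM libraries in the test of that change, which used all 8 libraries. Treatment and the sex of the mice cannot be told apart in this test. For Sftpb the difference between TG and WT on the log2 scale was 0.91 lower after HDM than after PBS (-0.9097, edgeR adjusted p = 0.0327), with TG libraries at 2317 and 2522 CPM against 1872 and 2267 CPM in WT after PBS, and 1014 and 1503 CPM against 2004 and 2043 CPM after HDM. For Slc34a2 it was -0.6259 (edgeR adjusted p = 0.0361), with 3068 and 3370 against 2485 and 2623 CPM after PBS and 2191 and 2375 against 2847 and 2743 CPM after HDM. Among all genes, 1.76% passed this test.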

How the results depend on the processing

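The 3 calls for HDM against PBS in WT mice (Sftpd, Sftpc and Sftpa1) passed in each of their 42 repeats, and the call of Sftpd in the TG groups passed in all of its repeats. Of the other calls, that of Sftpa1 was lost in 3 of 14 repeats (TG against WT after PBS), that of Sftpd in 5 of 14 (TG against WT after HDM), those of the 3 lower genes in the TG groups in 8, and those of the 2 differences between genotype effects in 11 of 34. Where a library was left out, the lone library of its group was assumed to vary like the others.

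For TG against WT after PBS the number of members past the test was 1, and it was 3 with no low-count filter, with the length offset, with the replicate block with length offset and with the coding length offset, 0 with all 8 libraries in 1 fit, and 0 to 3 with a library left out. For TG against WT after HDM it was 1, and it was 3 with DESeq2, with no low-count filter, with the replicate block and with all 8 libraries in 1 fit, and 0 to 3 with a library left out. For TG HDM against TG PBS it was 4, and 1 to 6 with a library left out. For the difference between genotype effects it was 2, and 4 for the replicate block with length offset, and 0 to 4 with a library left out. Labels share only a replicate number between groups. With that number as a replicate block, Sftpb and Sftpc passed for TG against WT after HDM (edgeR adjusted p = 0.00546 and 0.000157) and Sftpc and Napsa for TG HDM against TG PBS (0.000875 and 0.0382), and no other call of a member changed in the comparisons of 2 groups.

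After HDM, in the comparison of TG with WT, Sftpa1 turned to -0.1811 with the coding length offset, Abca3 to 0.0251, 0.0156 and 0.0786 with the length offset, the replicate block with length offset and the coding length offset, and Lamp3 to 0.0232 and 0.0233 with the first 2 of these. For HDM against PBS in WT, Abca3 turned to 0.0463 and 0.0506 with these 2 settings, and for TG HDM against TG PBS Sftpa1 turned to -0.2071 with the coding length offset. For the difference between genotype effects, Sftpc turned to -0.5314, -0.5044 and -0.1905 with the length offset, the replicate block with length offset and the coding length offset, and Napsa to -0.1955 and -0.2023 with the first 2. None of these values had passed the test in the first place, and the cause was not tested. With a library left out, Etv5 ranged from -0.3766 to 0.0647 for TG against WT after PBS. After HDM, Sftpa1 ranged from -0.0907 to 0.1639, Abca3 from -0.3811 to 0.0168 and Lamp3 from -0.0599 to 0.0447. For HDM against PBS in WT, Sftpb ranged from -0.1652 to 0.101, Abca3 from -0.1226 to 0.083, Lpcat1 from -0.0039 to 0.149 and Etv5 from -0.0822 to 0.0687, and in the TG groups Lamp3 ranged from -0.13 to 0.0036. The difference between genotype effects ranged from -0.1136 to 0.4474 for Sftpc and from -0.1122 to 0.4875 for Napsa.

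Over all genes, counts past the test moved by more than 1.5 times in several settings. The 98 calls for TG against WT after PBS became 223 with DESeq2, 306 with no filter, 45 with the replicate block, and 75 to 432 with a library left out. The 370 calls for TG against WT after HDM became 922 with DESeq2, 1055 with no filter, 625 with the replicate block, 771 with all 8 libraries, 155 and 144 with the length and coding length offsets, and 6 to 1595 with a library left out (6 without WT HDM replicate 1). For HDM against PBS in WT, 1020 became 1588 with no filter and 652 to 1661 with a library left out, and in the TG groups 2079 became 1329 with the length offset and 277 to 2676 with a library left out (277 without TG PBS replicate 2). For the difference between genotype effects, 279 became 680 with DESeq2, 675 with no filter, and 138 to 721 with a library left out. With the length offset, the share of higher calls went from 75.4% to 51.6% for TG against WT after HDM, from 61.2% to 49.4% for TG HDM against TG PBS, from 42.9% to 54.7% for TG against WT after PBS, and from 59.9% to 35.5% for the difference between genotype effects. The coding length offset moved the median log2 fold change of all genes from 0.0309 to -0.105 for TG HDM against TG PBS.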

Other observations

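Sftpb was at rank 20 to 23 by counts among all genes in 6 libraries and at rank 54 and 36 in the 2 libraries labelled TG HDM, while Sftpd moved from rank 811 to 971 in the PBS libraries to rank 297 and 310 in WT HDM and to rank 148 and 149 in the libraries labelled TG HDM. Napsa, at rank 1086 to 1469 after PBS, had ranks of 806, 1215, 824 and 452 after HDM. The mean of the members' log2 CPM, centred per gene over the 8 libraries, was -0.19 and -0.10 in WT PBS, 0.03 and 0.04 in WT HDM, 0.02 and 0.21 in TG PBS, and -0.16 and 0.15 in the libraries labelled TG HDM, so that the spread between the last 2 libraries spanned most of the range.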
